A study of Homo sapiens with 20 samples.

Results

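The tetraspanins are described here across 20 RNA-seq libraries of K562, an erythroleukemia cell line. The 31 genes were taken from a list of symbols and matched to Ensembl gene identifiers, and all 31 were present in both kinds of table, among 57736 genes in the drug tables and 53153 in the excision tables. The study asked how K562 responds to inhibition of EZH2 and REST and to loss of a pair of silencer elements. In the drug arm, cells received DMSO for 72 h, 5 uM GSK343 (an inhibitor of the histone methyltransferase EZH2) for 72 h, 100 uM X5050 (an inhibitor of the neuronal gene repressor REST) for 72 h, or both compounds at these doses for 8, 24 or 72 h. In the excision arm, cells were edited with CRISPR to remove silencer 1 (S1KO), silencer 2 (S2KO) or both (DKO), beside empty vector cells (EV). Each of the 10 groups had 2 libraries, called biological replicates in the series design. DMSO was sampled at 72 h alone, so at 8 and 24 h the effect of the combination and of time in culture cannot be told apart. The labels do not say whether the excised lines were single clones, and differences between lines and effects of the excision cannot be told apart. The excised elements are not genes, so no gene count checks the excision.

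Tetraspanins are small proteins that cross the membrane repeatedly and gather integrins, immunoglobulin superfamily proteins, proteases and signalling receptors into membrane microdomains. They are found on the cell surface, in endosomes and in exosomes, where CD9, CD63 and CD81 serve as common markers. The TspanC8 subgroup escorts the protease ADAM10 to the surface, where it sheds Notch and other substrates. In the megakaryocyte and platelet lineage, which K562 can partly enter, CD9, CD63, CD151 and TSPAN9 are known surface or granule proteins.

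Levels are given as CPM, counts scaled to a common library size with TMM factors, separately in each arm. Gene counts per library ranged from 22925617 to 38177320 among drug libraries and from 55913728 to 98507880 among excision libraries. In the 2 libraries of the combination at 72 h, 50.7% and 49.9% of counts on the strand used were not assigned to a gene. The other drug libraries had 34.0% to 42.6%. This share pools unmapped, multiply mapped, ambiguous and outside-gene reads, and its part in the 72 h results was not tested. Within each of the 10 groups the libraries differed beyond counting noise, with a mean chi-square per gene of 7.14 for the combination at 24 h and 326 for EV, where 1 is counting noise alone. Of 11 erythroid markers of K562, at most 1 was at or under 3 counts in a library. Their sum was 2324 and 2491 CPM in DMSO, 2259 and 1671 with GSK343, and 5986 and 2974 under X5050. For the combination it was 5052 and 5595 at 8 h, 5650 and 5642 at 24 h and 6132 and 4754 at 72 h, and its part in the drug results was not tested. A list of 6 epithelial markers, of which 1 or 2 were at or under 3 counts in each drug library, summed to 543 and 595 CPM in DMSO, 697.5 and 811 with GSK343 and 640.3 and 563 under X5050. Over the combination times it summed to 476 and 536, 1237 and 1202, and 1264 and 1144, and its part was not tested. In the excision arm the erythroid sum was 6263 and 2717 CPM in EV, against 16630 and 9265 for S1KO, 12740 and 6002 for S2KO and 17020 and 19940 for DKO, and its part in the excision results was not tested. A list of 6 fibroblast markers summed to 3.26 and 2.55 CPM in EV, with 1 and 2 of them at or under 3 counts. It summed to 10.45 and 9.035 CPM in S1KO, 3.27 and 2.35 in S2KO, and 131 and 109 in DKO, with 1 at or under 3 counts in each DKO library. In the drug arm it summed to 7.02 and 5.80 CPM in DMSO, with 2 in each, and to 22.2 and 22.0 under GSK343, with 2 and 3. Under X5050 it summed to 5.15 and 3.47. Over the combination times it summed to 2.9 and 3.57, 6.63 and 6.28, and 11.39 and 8.24, and its part was not tested either. In bulk RNA, a change in the share of cells and a change in RNA per cell cannot be told apart.

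In control cells CD63, a marker of late endosomes and exosomes, stood first in both arms. Per kilobase of exon, CD63 measured 67.1 and 92.7 CPM in DMSO, followed by CD151, a partner of laminin-binding integrins, at 28.4 and 31.7. TSPAN13 came next at 25.3 and 27.6, then CD81 at 20.7 and 21.2, and CD53, a leukocyte tetraspanin, at 15.5 and 24.2. CD81 and CD53 overlapped, as did TSPAN17 and TSPAN3, TSPAN14 and TSPAN31, and each pair of neighbours from ROM1 down to TSPAN33. In EV, in TPM, a length-scaled unit, CD63 measured 175 and 187, and CD53, CD151 and CD81 followed with overlapping neighbours at 61.5 and 66.3, 63.7 and 49.8, and 62.5 and 42.9. At the other end, TSPAN2 had 0 counts in 10 drug libraries and in all 8 excision libraries, and TSPAN11 had 0 counts in all 8 excision libraries and at most 2 counts in a drug library. The drug arm tested 25 of the 31 genes. The others, TSPAN1, TSPAN2, TSPAN8, TSPAN11, UPK1A and UPK1B, did not pass the filter on low counts there and reached at most 6, 5, 9, 2, 5 and 1 counts in a library. The excision arm tested 27, without TSPAN1, TSPAN2, TSPAN11 and UPK1A, which reached at most 8, 0, 0 and 2 counts.

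**Figure D1:**
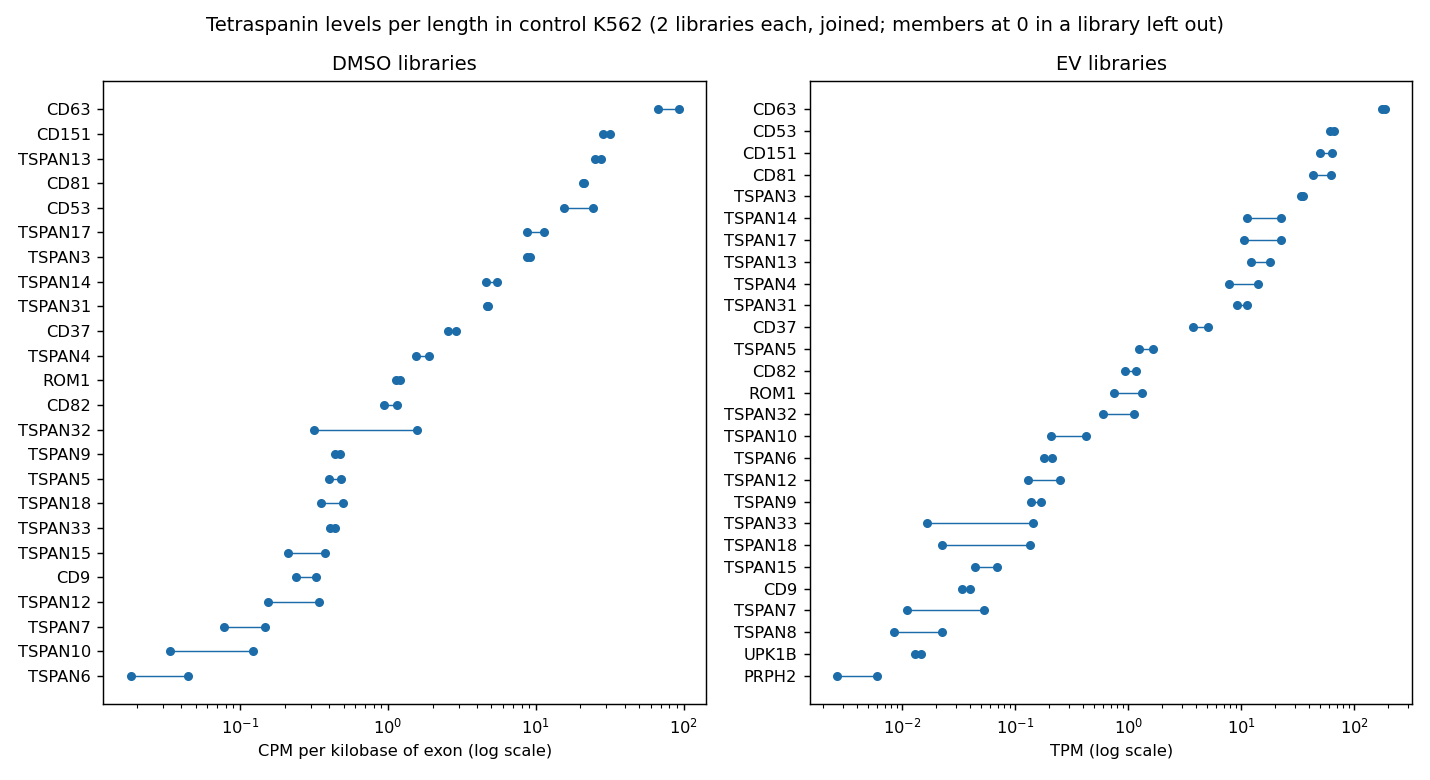
Level of each tetraspanin per length in control K562 (log axis), as CPM per kilobase of exon in the 2 DMSO libraries and TPM in the 2 EV libraries, each pair of points joined by a line. CD63 stood highest in both, and the joined points of many neighbours overlapped.

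GSK343 alone raised 8 of the 25 tested tetraspanins and lowered none by the edgeR quasi-likelihood test, at a Benjamini-Hochberg adjusted p under 0.05. Over all tested genes 9.12% rose and 3.31% fell. At an unadjusted p under 0.05 the family had 10 rises and 1 fall, and DESeq2 called 8 and 0. Of 19332 genes, DESeq2 called 1518 rises and 716 falls. All-gene counts at an unadjusted p are not given here. The median log2 change was 0.30 in the family and 0.00 over all genes. X5050 alone raised 2 and lowered 1, where 5.34% of all genes rose and 7.23% fell. The combination at 72 h raised 10 and lowered 1, where 19.2% rose and 17.3% fell, and the family median was 0.38 against 0.01. In the interaction, which asks whether the combination departed from the sum of the single log2 changes, 1 tetraspanin lay above that sum and 4 below it, where 9.75% and 9.04% of all genes did. At an unadjusted p under 0.05 edgeR had 6 above and 4 below, and DESeq2 called 2 and 3. Of 15695 genes, DESeq2 called 1686 above and 2082 below. The family median of the interaction was 0.153 against 0.015 over all genes. Counts without 1 library ran from 5 to 9 for GSK343, 1 to 6 for X5050 and 7 to 13 for the combination. The GSK343 count fell without GSK343 replicate 2 and the combination count without its replicate 2, and calls over all genes fell in both fits too. For X5050 the count rose without DMSO replicate 1 or X5050 replicate 2. It fell without DMSO replicate 2 or X5050 replicate 1, and calls over all genes moved the same way in each of these fits.

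**Figure D2:**
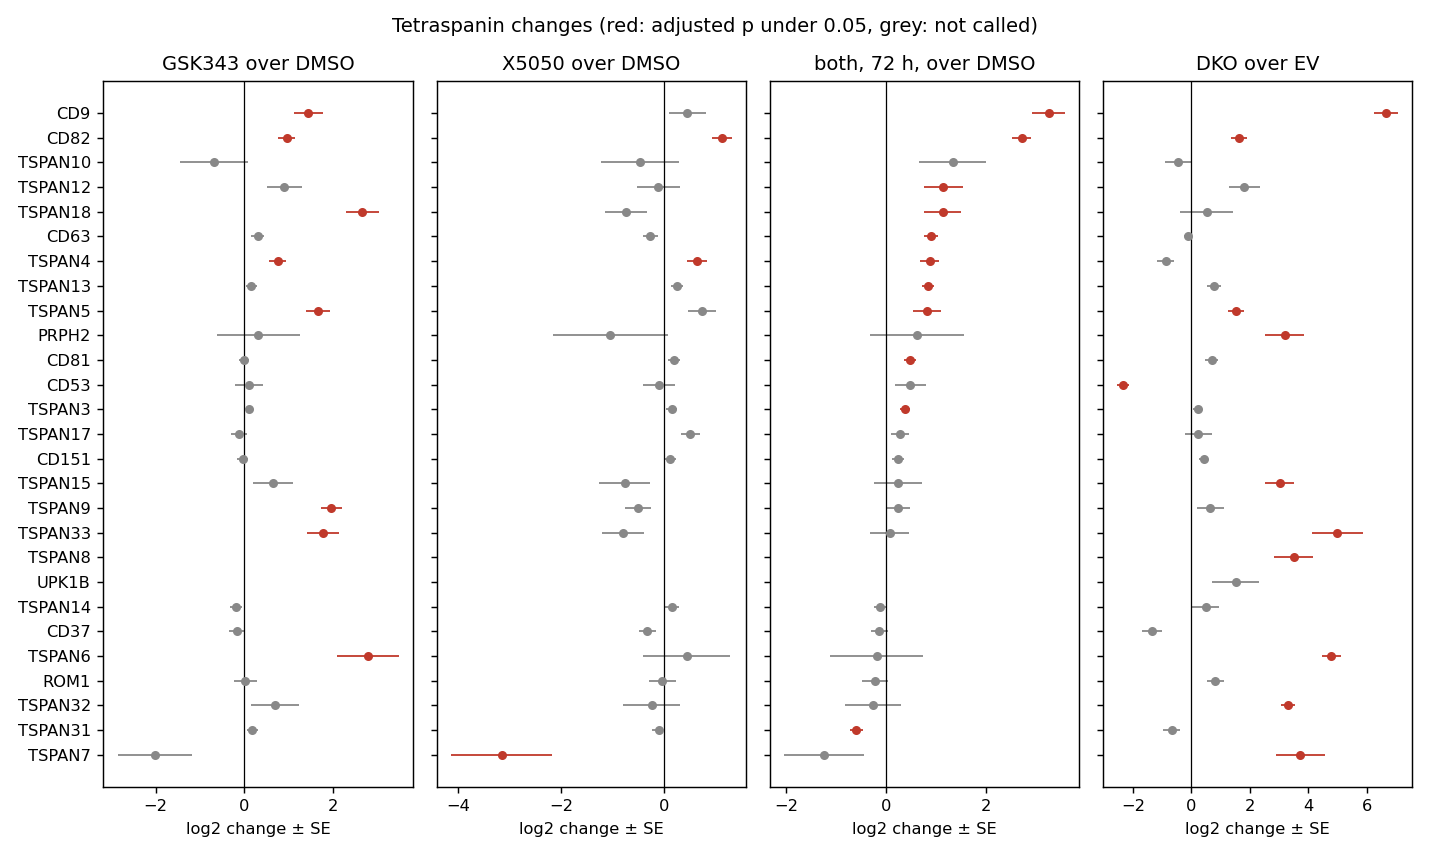
Fitted log2 change with its standard error (bars) for each tested tetraspanin in GSK343, X5050 and the combination at 72 h over DMSO and in DKO over EV, with a scale for each panel, red where the adjusted p was under 0.05. CD9 and CD82 lay to the right in GSK343, in the combination and in DKO, and CD53 lay furthest left in DKO.

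Of the 6 integrin and immunoglobulin superfamily partners, 3 rose with GSK343, 2 with X5050 and 5 with the combination at 72 h, where 9.12%, 5.34% and 19.2% of all genes rose. CD9, which holds integrins and the membrane-anchored growth factor HBEGF at the surface, measured 1.36 and 1.00 CPM in DMSO, 3.65 and 2.84 under GSK343, and 2.04 and 1.21 under X5050. With the combination it measured 0.527 and 0.587 CPM at 8 h, 3.94 and 4.08 at 24 h, and 14.15 and 8.55 at 72 h. It was lowest at 8 h and highest at 72 h, with no overlap with DMSO at any of the combination times. The rise at 72 h was 3.26 on the log2 scale (SE 0.33, adjusted p = 1.87e-06), and it was called in all 11 alternatives, with adjusted p from 6.73e-22 to 9.8e-05. With GSK343 the log2 rise was 1.45 (SE 0.34, adjusted p = 0.00993). That call was lost without DMSO replicate 2 (adjusted p = 0.0814) and without GSK343 replicate 1 (adjusted p = 0.0724), and its adjusted p over the alternatives ran from 0.000471 to 0.0814. With X5050 the fitted log2 change of 0.46 was not called (adjusted p = 0.445). The combination at 72 h exceeded GSK343 alone by 1.81 (SE 0.29, adjusted p = 0.000172) and X5050 alone by 2.80 (SE 0.31, adjusted p = 9.01e-06), both kept in all alternatives.

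CD82, a tetraspanin known for restraining cell motility, measured 3.80 and 4.64 CPM in DMSO, 7.30 and 9.10 under GSK343 and 8.92 and 9.62 under X5050. With the combination it measured 3.54 and 3.47 CPM at 8 h, 5.92 and 6.52 at 24 h and 25.0 and 30.5 at 72 h. Both single agents and the combination at 24 and 72 h lay above DMSO without overlap. The log2 rises were 0.96 with GSK343 (SE 0.19, adjusted p = 0.00434), 1.13 with X5050 (SE 0.19, adjusted p = 0.00157) and 2.71 with the combination at 72 h (SE 0.20, adjusted p = 5.08e-08). The X5050 and 72 h rises were called in all alternatives, with adjusted p from 6.71e-06 to 0.0358 and from 4.66e-32 to 1.34e-05. The GSK343 rise was lost in a fit of the compared groups alone (adjusted p = 0.0676) and without GSK343 replicate 2 (adjusted p = 0.0959), within a range from 0.000664 to 0.0959. The interaction was not called for CD9 or CD82.

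CD63 rose at the later times of the combination. Its levels were 177 and 244 CPM in DMSO, 231 and 288 under GSK343, 186 and 165 under X5050, 156 and 159.6 with the combination at 8 h, 282 and 284 at 24 h and 383 and 398 at 72 h. Only the 24 and 72 h libraries of the combination lay wholly above the DMSO pair. At 72 h the log2 rise was 0.89 (SE 0.14, adjusted p = 0.000147) and held in all alternatives. TSPAN4, a component of migrasomes, measured 11.1 and 8.96 CPM in DMSO, 16.8 and 17.1 under GSK343, 18.5 and 12.9 under X5050, and 6.74 and 5.82, 9.57 and 10.8, and 19.5 and 17.2 over the combination times. Its rise of 0.87 at 72 h (SE 0.19, adjusted p = 0.00184) held in all alternatives. Its GSK343 rise of 0.76 (SE 0.19, adjusted p = 0.0152) was lost in 4 of 11 alternatives, with adjusted p from 0.00347 to 0.12, among them the fits without DMSO replicate 2 (0.11), GSK343 replicate 1 (0.0663) and GSK343 replicate 2 (0.12). The X5050 rise of 0.65 (SE 0.19, adjusted p = 0.0338) was lost in 4 as well, with adjusted p from 0.00587 to 0.334, among them the fits without DMSO replicate 2 (0.138) and X5050 replicate 1 (0.334).

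CD81, a partner of the immunoglobulin superfamily protein IGSF8, measured 153 and 157 CPM in DMSO, 154 and 156 under GSK343, 199 and 158 under X5050, and 105 and 123, 140.3 and 144, and 222 and 212 over the combination times. Its 72 h rise of 0.49 (SE 0.12, adjusted p = 0.0047) was 0.18 and not called once a trend in GC content was removed (adjusted p = 0.253, range over the alternatives 0.00329 to 0.253). CD151 measured 112 and 125 CPM in DMSO, 118 and 113 under GSK343, 137 and 121 under X5050, and 75.6 and 88.9, 113 and 111.2, and 149.9 and 131 over the combination times. It fell at 8 h by 0.53 (SE 0.12, adjusted p = 0.00208), which came to -0.00277 with the GC trend removed (adjusted p = 0.99, the highest of its range from 0.000498) and was not called without replicate 1 of the combination at 8 h (adjusted p = 0.0712). From 8 to 24 h CD151 rose by 0.45 (SE 0.12, adjusted p = 0.00796), which was kept with the GC trend removed and lost without replicate 1 at 24 h (0.0621) or at 8 h (0.147), within a range from 0.000196 to 0.147.

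**Figure D3:**
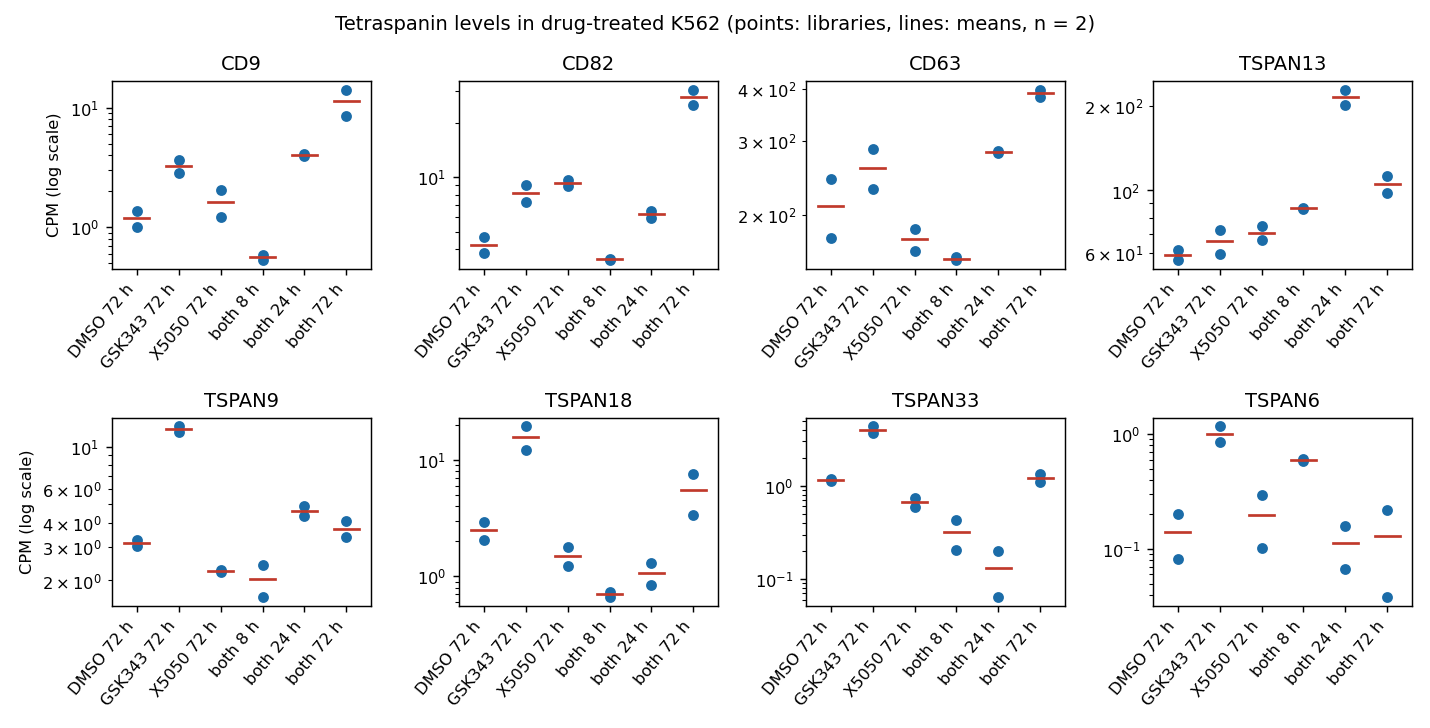
CPM (log axis) of 8 tetraspanins in each of the 12 drug libraries, with points for libraries and red lines for the means of 2. CD9, CD82 and CD63 were highest with both compounds at 72 h, TSPAN13 at 24 h, and TSPAN9, TSPAN18, TSPAN33 and TSPAN6 with GSK343 alone.

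Of the 6 TspanC8 genes, which guide ADAM10, 2 rose with GSK343, none was called with X5050 and 1 rose with the combination at 72 h, where 9.12%, 5.34% and 19.2% of all genes rose. With X5050, 2 TspanC8 genes, TSPAN5 and TSPAN17, were higher at an unadjusted p under 0.05 in edgeR (log2 0.74 and 0.51). TSPAN5 measured 3.59 and 2.96 CPM in DMSO, 10.7 and 10.1 under GSK343, 7.33 and 3.62 under X5050, and 5.83 and 4.77, 7.01 and 6.95, and 6.13 and 5.49 over the combination times. Every treated library lay above both DMSO libraries. Its GSK343 rise was 1.67 on the log2 scale (SE 0.27, adjusted p = 0.000934) and its 24 h rise 1.09 (SE 0.28, adjusted p = 0.00452), both kept in all alternatives. The 72 h rise of 0.83 (SE 0.28, adjusted p = 0.0298) was lost in 4 of 11, with adjusted p from 0.0123 to 0.135, among them the fits without DMSO replicate 2 (0.131), replicate 1 of the combination at 72 h (0.135) and its replicate 2 (0.0615).

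TSPAN33, expressed in activated B cells and needed in red cell development, moved in opposite directions with GSK343 alone and with the early combination. Its levels were 1.20 and 1.12 CPM in DMSO, 4.36 and 3.67 under GSK343, and 0.746 and 0.585 under X5050. Over the combination times they were 0.205 and 0.434 at 8 h, 0.064 and 0.20 at 24 h, and 1.09 and 1.33 at 72 h. The GSK343 libraries lay wholly above DMSO and the 8 and 24 h libraries wholly below it, while those at 72 h spanned it. The log2 changes were a rise of 1.79 with GSK343 (SE 0.36, adjusted p = 0.00428), and changes of -1.82 at 8 h (SE 0.43, adjusted p = 0.00299) and -3.10 at 24 h (SE 0.52, adjusted p = 0.000169). From 24 to 72 h it rose by 3.18 (SE 0.52, adjusted p = 0.000117). All 4 calls held in all alternatives, and the 24 h level rested on 2 and 6 counts.

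TSPAN15 was low, at 0.991 and 0.56 CPM in DMSO, 1.27 and 1.17 under GSK343, 0.543 and 0.366 under X5050, and 0.0879 and 0.255, 0.256 and 0.401, and 0.833 and 0.992 over the combination times. It fell at 8 h by 2.12 (SE 0.55, adjusted p = 0.0055), which was lost without replicate 1 of the combination at 8 h and without DMSO replicate 1 (adjusted p up to 0.0672, range 0.00282 to 0.0672). TSPAN14 measured 81.9 and 97.8 CPM in DMSO, 78.7 in both GSK343 libraries, 117 and 84.5 under X5050, and 93.0 and 100.4, 71.4 and 69.4, and 79.3 and 86.6 over the combination times, and it was not called against DMSO in any comparison. Between 8 and 24 h it fell by 0.46 (SE 0.14, adjusted p = 0.0165), a call lost without either 24 h replicate or replicate 2 at 8 h. TSPAN17 ranged from 45.1 to 91.5 CPM and was called in no drug comparison. TSPAN10, a rare member, measured 0.578 and 0.16 CPM in DMSO, 0.106 and 0.34 under GSK343, 0.17 and 0.366 under X5050, and 0.205 and 0.204, 0.128 and 0.267, and 1.27 and 0.611 over the combination times. It rose from 24 to 72 h by 2.22 (SE 0.71, adjusted p = 0.0179), a call lost in 2 of 11 alternatives with adjusted p up to 0.186, without replicate 1 at 24 h or replicate 1 at 72 h. ADAM10 itself rose at 8 h by 0.41 (SE 0.15, adjusted p = 0.0324) and at 24 h by 0.99 (SE 0.15, adjusted p = 5.72e-05). It was not called at 72 h (log2 change -0.14, adjusted p = 0.479).

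Among the other tetraspanins, GSK343 alone raised TSPAN9, TSPAN18 and TSPAN6, and the combination did not keep these levels. TSPAN9, a platelet tetraspanin, measured 3.26 and 3.04 CPM in DMSO, 11.9 and 12.8 under GSK343, 2.20 and 2.27 under X5050, and 1.64 and 2.42, 4.32 and 4.88, and 4.08 and 3.36 over the combination times. Its GSK343 rise was 1.97 (SE 0.24, adjusted p = 5.89e-05), and the combination at 72 h lay 1.73 below GSK343 alone (log2 change -1.73, SE 0.23, adjusted p = 2.99e-05), both kept in all alternatives. A list of 6 megakaryocyte and platelet markers summed to 18.9 and 13.6 CPM in DMSO, 48.0 and 37.9 under GSK343 and 24.8 and 21.3 under X5050. Over the combination times it summed to 15.9 and 15.5, 12.7 and 11.4, and 9.68 and 13.2. Of the 6 markers, 4 and 4 were at or under 3 counts in DMSO and 3 and 4 under GSK343. Nearly all of the sum in these 2 groups was ITGA2B, at 18.4 and 13.4 CPM in DMSO and 47.4 and 37.6 under GSK343. The part of these markers was not tested. TSPAN18, which has been tied to calcium entry in endothelial cells, measured 2.06 and 2.92 CPM in DMSO, 12.2 and 19.5 under GSK343, 1.22 and 1.79 under X5050, and 0.732 and 0.663, 1.31 and 0.835, and 3.33 and 7.59 over the combination times. The rise with GSK343 was 2.67 (SE 0.37, adjusted p = 0.000281) and the change at 8 h was -1.83 (SE 0.43, adjusted p = 0.00298), again kept in all alternatives. The 72 h rise of 1.14 (SE 0.37, adjusted p = 0.0265) was 0.42 without replicate 2 of the combination at 72 h (adjusted p = 0.47, range 0.000789 to 0.47) and was lost without DMSO replicate 1 too (adjusted p = 0.169).

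TSPAN6, an X-linked tetraspanin of endosomes, was rare in DMSO, with 2 and 5 counts (0.0826 and 0.20 CPM), and reached 24 and 38 counts (0.85 and 1.17 CPM) with GSK343. It had 0.102 and 0.292 CPM with X5050 and 0.586 and 0.612, 0.16 and 0.0668, and 0.219 and 0.0382 CPM over the combination times. GSK343 and the combination at 8 h lay above DMSO without overlap. The GSK343 rise of 2.80 (SE 0.69, adjusted p = 0.015) was lost without DMSO replicate 1 (adjusted p = 0.0575) and without GSK343 replicate 2 (adjusted p = 0.125), within a range from 0.00215 to 0.125. The 8 h rise of 2.04 (SE 0.71, adjusted p = 0.0293) was lost in 5 of 11 alternatives, with adjusted p up to 0.169, without either 8 h replicate and without DMSO replicate 1.

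TSPAN13, a small abundant tetraspanin linked to calcium channel regulation, peaked at 24 h of the combination. It measured 56.3 and 61.4 CPM in DMSO, 72.3 and 59.5 under GSK343, 74.4 and 66.5 under X5050, 86.8 and 86.0 at 8 h, 202 and 229.5 at 24 h and 112 and 98.1 at 72 h. The log2 rises over DMSO were 0.55 at 8 h (SE 0.12, adjusted p = 0.00201), 1.87 at 24 h (SE 0.13, adjusted p = 2.11e-08) and 0.84 at 72 h (SE 0.13, adjusted p = 8.08e-05). It then changed by -1.03 from 24 to 72 h (SE 0.12, adjusted p = 7.51e-06). These 4 calls held in all alternatives.

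TSPAN3 measured 78.0 and 73.7 CPM in DMSO, 78.6 and 84.7 under GSK343, 89.8 and 79.6 under X5050, and 69.4 and 71.8, 84.0 and 87.8, and 98.2 and 99.3 over the combination times. Its 72 h rise of 0.38 (SE 0.11, adjusted p = 0.0097) was lost in a fit of the compared groups alone (adjusted p = 0.0708, range 0.0117 to 0.0708) and without replicate 2 of the combination at 72 h (adjusted p = 0.0511). TSPAN12, which acts with FZD4 in Norrin signalling, measured 1.16 and 0.52 CPM in DMSO, 1.35 and 1.79 under GSK343, 0.644 and 0.914 under X5050, and 1.02 and 1.07, 0.80 and 0.702, and 1.93 and 1.79 over the combination times. The 72 h rise of 1.15 (SE 0.39, adjusted p = 0.0302) was lost in 6 of 11 alternatives, with adjusted p from 0.00659 to 0.238, among them the fits without DMSO replicate 2 or either 72 h replicate. TSPAN7 had 11 and 6 counts in DMSO, 2 and 3 under GSK343, 1 and 1 under X5050, and 26 and 9, 1 and 1, and 4 and 3 over the combination times. Its ratio of X5050 to DMSO was 0.102 with a 95% counting interval of 0.0114 to 0.429. That fall (adjusted p = 0.0476) was lost in 8 of 9 alternatives, each fit with a library left out among them (adjusted p 0.04 to 0.248).

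TSPAN31 lies opposite CDK4 and AGAP2, and its 72 h change over DMSO depended on how strands were counted. On its own strand it measured 25.4 and 25.1 CPM in DMSO, 27.8 and 29.5 under GSK343, 23.1 and 24.1 under X5050, 16.3 and 16.6 at 8 h, 23.9 and 23.02 at 24 h and 16.3 and 17.0 at 72 h. The fall at 72 h was 0.60 (log2 change -0.60, SE 0.12, adjusted p = 0.00133). With unstranded counts the change was 0.03 (adjusted p = 0.911, range 0.000227 to 0.911). Unstranded counts held fewer reads for this gene in DMSO (467 and 405 against 615 and 626). At 72 h of the combination they held more (402 and 508 against 372 and 446).

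The leukocyte tetraspanins CD53, CD37 and TSPAN32 were not called with either single agent or with the combination at 72 h. For these 3 genes none had an unadjusted p under 0.05 in those comparisons in edgeR. CD53 measured 33.3 and 52.1 CPM in DMSO, 29.8 and 62.5 under GSK343, 36.4 and 44.4 under X5050, 18.1 and 19.0 at 8 h, 91.5 and 89.2 at 24 h and 57.2 and 62 at 72 h. It was thus lowest at 8 h and highest at 24 h. Lymphoid markers, a list of 8, summed to 114 and 134 CPM in DMSO, 114 and 96.0 at 8 h, 209.5 and 212 at 24 h and 41.6 and 51.0 at 72 h. Of these, 2 to 5 were at or under 3 counts in each drug library. A list of 7 myeloid markers, with 0 to 4 at or under 3 counts, summed to 17.7 and 22.2 CPM in DMSO. It summed to 18.45 and 17.5 at 8 h, 22.6 and 23.4 at 24 h and 16.4 and 15.8 at 72 h. The part of both lists was not tested. From 8 to 24 h CD53 rose by 2.29 (SE 0.32, adjusted p = 0.000559), kept in all alternatives. Its change over DMSO was -1.21 at 8 h (SE 0.32, adjusted p = 0.0132) and 1.08 at 24 h (SE 0.31, adjusted p = 0.0195). Each of these was lost in 3 of 11 alternatives, without either replicate at that time or without a DMSO replicate, number 2 at 8 h and number 1 at 24 h (adjusted p up to 0.139 and 0.18). CD37, which organizes B cell surface receptors, measured 10.6 and 11.9 CPM in DMSO, 7.53 and 8.85 at 8 h and 13.6 and 13.4 at 24 h, 10.4 and 10.03 at 72 h, 9.21 and 10.8 under GSK343 and 8.82 and 9.21 under X5050. It rose between 8 and 24 h by 0.72 (SE 0.17, adjusted p = 0.0033), a call lost without replicate 1 of the combination at 8 h. TSPAN32 was discordant in DMSO, at 5.95 and 1.20 CPM, beside 7.12 and 4.41 under GSK343, 3.66 and 2.38 under X5050, 1.38 and 0.995 at 8 h, 0.512 and 0.768 at 24 h and 3.50 and 2.48 at 72 h. Its 24 h change of -2.47 (SE 0.65, adjusted p = 0.00901) was -0.91 without DMSO replicate 1 (adjusted p = 0.163, range 1.11e-09 to 0.163), and was lost without replicate 1 at 24 h too (adjusted p = 0.084).

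The photoreceptor disc tetraspanins PRPH2 and ROM1 were low. ROM1 measured 2.81 and 3.001 CPM in DMSO, 3.22 and 2.72 under GSK343, 2.95 and 2.74 under X5050, and 1.44 and 1.81, 1.57 and 1.44, and 2.58 and 2.40 over the combination times. It fell at 24 h by 0.95 (SE 0.27, adjusted p = 0.00995), which became -0.38 with the GC trend removed (adjusted p = 0.278, range 0.0103 to 0.278), and was lost without either 24 h replicate. PRPH2 had at most 14 counts in a library and was called in no drug comparison. Photoreceptor markers summed to 0 to 0.394 CPM in this arm.

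Over the time course, 2 tetraspanins rose and 13 fell at 8 h against DMSO, where 21.8% of all genes rose and 21.2% fell. With the GC trend removed 6 were called in all, and without replicates 1 and 2 of the combination at 8 h 5 and 9. Over all genes the fit with the GC trend removed called 3868 rises and 3392 falls at 8 h, against 4194 and 4074 in the main fit. The tetraspanin calls kept in all alternatives were the falls of TSPAN18, TSPAN33 and TSPAN31 and the rise of TSPAN13. At 24 h 6 rose and 5 fell, where 22.0% and 21.1% of all genes did, and 4 calls held throughout, the rises of CD9, TSPAN13 and TSPAN5 and the fall of TSPAN33. The 24 h count was 5 without either 24 h replicate and 7 without DMSO replicate 1. CD9 changed by -1.07 at 8 h (SE 0.39, adjusted p = 0.0344), lost in 5 of 11 alternatives up to 0.184, and by 1.76 at 24 h (SE 0.33, adjusted p = 0.000489). CD82 and CD63 rose at 24 h by 0.56 (SE 0.20, adjusted p = 0.0308) and 0.43 (SE 0.14, adjusted p = 0.0228), each lost in 4 of 11, without either 24 h replicate, without DMSO replicate 1 and with only the compared groups (adjusted p up to 0.169 and 0.229). From 8 to 24 h 11 rose and 3 fell, where 18.4% and 17.4% did, and the count was 9 without replicate 1 at 24 h. From 24 to 72 h 13 rose and 2 fell, where 24.1% and 21.8% did, and the median of the family was 0.61 against 0.07 over all genes. The count was 8 and 9 without 24 h replicates 1 and 2 and 9 without 72 h replicate 1. CD9, CD82, TSPAN18 and TSPAN33 rose and TSPAN13 fell over that last step in all alternatives. Over these 2 steps 5 and then 6 of the 6 integrin partners rose. With the GC trend removed, CD151 and CD81 were instead called as falls from 24 to 72 h (log2 -0.47 and -0.34, adjusted p = 0.00611 and 0.0321), and TSPAN4 and CD63 were not called (log2 -0.07 and 0.15, adjusted p = 0.819 and 0.495).

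Against the single agents, the combination at 72 h had 7 tetraspanins higher and 6 lower than GSK343, where 18.9% and 20.5% of all genes were, and 7 higher and 1 lower than X5050, where 17.5% and 12.8% were, with 5 called over X5050 without either 72 h replicate. CD9, CD82 and TSPAN13 were higher and TSPAN9, TSPAN33 and TSPAN18 lower than with GSK343 in all alternatives. CD63, CD82 and CD9 were higher than with X5050 in all alternatives.

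In the excision arm, S1KO raised 6 tetraspanins and lowered 2 against EV, where 2.44% of all genes rose and 1.23% fell. S2KO raised none and lowered 2, where 1.45% rose and 0.554% fell. At an unadjusted p under 0.05 edgeR had 6 rises and 4 falls for S2KO, and DESeq2 called 0 and 2. Of 23177 genes, DESeq2 called 756 rises and 326 falls for S2KO. DKO raised 10 and lowered 1, where 5.41% rose and 3.35% fell, and the family median was 0.78 against 0.01 over all genes. Without 1 library the DKO count ran from 4 to 8 and the S1KO count from 3 to 6. It was 4 without either DKO replicate and 5 without EV replicate 1 for DKO, and for S1KO it was 3, 4 and 5 without S1KO replicates 1 and 2 and EV replicate 1. DKO exceeded S1KO for 3 and lay below it for 1, where 0.625% and 0.47% of all genes did. All of these tetraspanin calls were lost once any of the 4 libraries compared was left out. Such fits keep 1 library in a group, and calls over all genes fell steeply there as well. DKO exceeded S2KO for 4 and lay below it for none, where 1.61% and 1.36% of all genes did. At an unadjusted p under 0.05 in edgeR there were 10 and 0, and DESeq2 called 7 and 0. Of 22506 genes, DESeq2 called 777 higher and 789 lower in DKO than in S2KO.

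CD9 showed the steepest gradient over these lines. Its levels were 0.0506 and 0.0358 CPM in EV (4 and 3 counts), against 0.42 and 0.489 in S1KO, with S2KO at 0.167 and 0.118 and DKO at 4.86 and 4.23 (284 and 262 counts). No group overlapped another. The log2 rises over EV were 6.67 in DKO (SE 0.41, adjusted p = 0.000392), called in all alternatives with adjusted p up to 0.00638, and 3.35 in S1KO (SE 0.39, adjusted p = 0.00695). The S1KO call was lost in a fit of the compared groups alone (adjusted p = 0.0638, range 1.63e-05 to 0.0638) and without EV replicate 2 (adjusted p = 0.052). In S2KO the fitted log2 change of 1.69 was not called (adjusted p = 0.12). DKO exceeded S2KO by 4.98 (SE 0.37, adjusted p = 0.00173) in all alternatives.

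TSPAN6 measured 0.455 and 0.669 CPM in EV, against 2.75 and 2.71 in S1KO, with S2KO at 0.669 and 0.854 and DKO at 15.8 and 15.5. It lay above EV without overlap in S1KO and DKO. The DKO rise was 4.79 (SE 0.31, adjusted p = 0.000445) and held in all alternatives, with adjusted p up to 0.00807. The S1KO rise was 2.27 (SE 0.28, adjusted p = 0.00861) and was lost in a fit of the compared groups alone (adjusted p = 0.0779, the highest of its range from 2.22e-11), without S1KO replicate 1 (0.0543) and without S1KO replicate 2 (0.0547). TSPAN32 measured 1.29 and 1.11 CPM in EV, against 5.82 and 5.95 in S1KO, with S2KO at 0.682 and 0.881 and DKO at 11.8 and 12.04. Its rises of 2.29 in S1KO (SE 0.24, adjusted p = 0.00472) and 3.31 in DKO (SE 0.25, adjusted p = 0.000933) held in all alternatives. Of its TPM, 87.4% lay on transcripts annotated as other than protein-coding, and it overlaps C11orf21 on the other strand, so its reads in this arm are uncertain.

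TSPAN5 did not follow the order of the other genes. It measured 4.68 and 6.69 CPM in EV, against 1.44 and 1.5 in S1KO, with S2KO at 0.901 and 1.04 and DKO at 14.8 and 17.9, so each single excision lay below EV and the double above it, with no overlap. The log2 changes were -1.95 in S1KO (SE 0.27, adjusted p = 0.0118), -2.55 in S2KO (SE 0.27, adjusted p = 0.00793) and 1.52 in DKO (SE 0.26, adjusted p = 0.0156). The S1KO call was lost without S1KO replicate 1 (adjusted p = 0.108) and 2 (0.0994), and the DKO call without DKO replicate 1 (0.09), DKO replicate 2 (0.152) and EV replicate 1 (0.0601), within ranges of 8.08e-09 to 0.108 and 8.23e-06 to 0.152. The S2KO call was lost in a fit of the compared groups alone (0.165, range 8.96e-14 to 0.165). DKO exceeded S2KO by 4.07 (SE 0.29, adjusted p = 0.00168) in all alternatives.

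**Figure D4:**
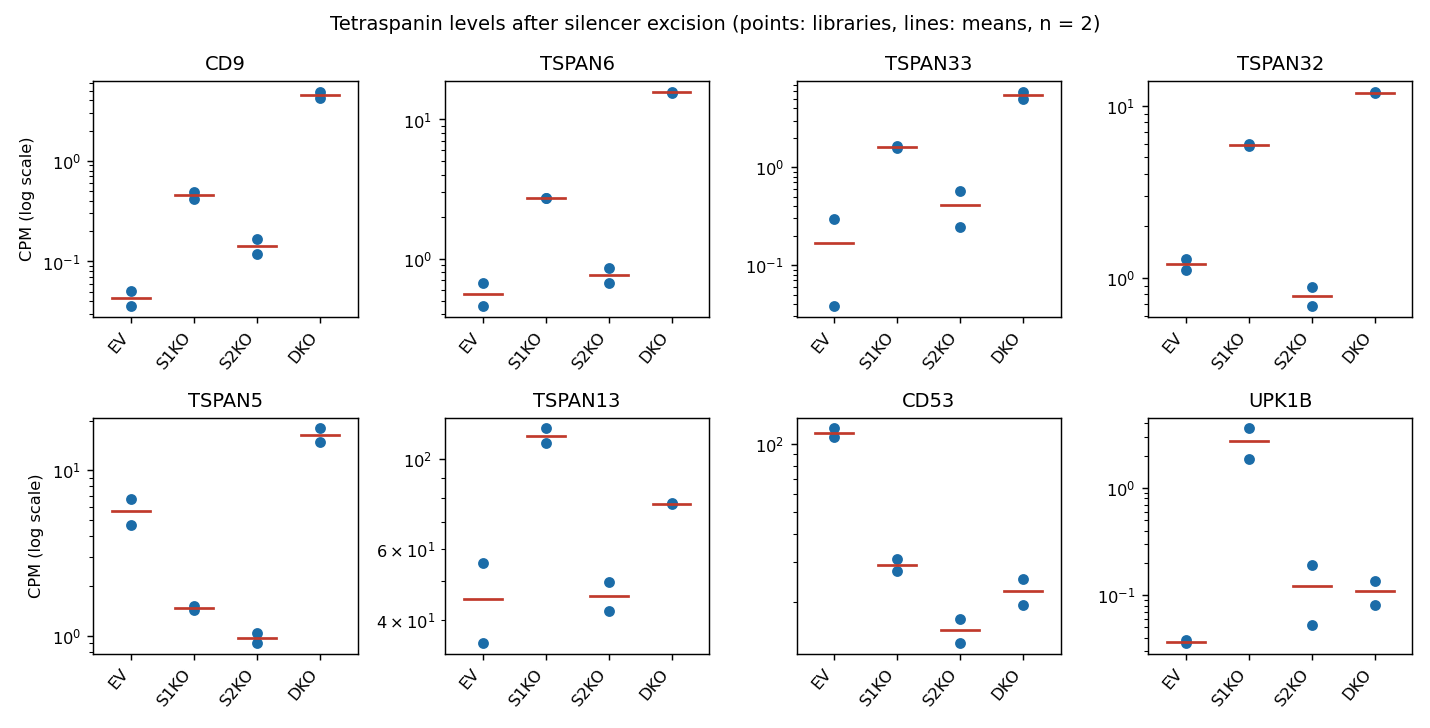
CPM (log axis) of 8 tetraspanins in each of the 8 excision libraries, with points for libraries and red lines for the means of 2. CD9, TSPAN6, TSPAN33, TSPAN32 and TSPAN5 were highest in DKO, TSPAN13 and UPK1B in S1KO, and CD53 in EV.

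CD53 fell in all 3 excised lines. It measured 107 and 117 CPM in EV, against 27.4 and 30.9 in S1KO, with S2KO at 13.1 and 16.7 and DKO at 25.2 and 19.4. All 6 excised libraries lay below both EV libraries. The log2 changes were -1.94 in S1KO (SE 0.20, adjusted p = 0.00457), -2.91 in S2KO (SE 0.21, adjusted p = 0.00252) and -2.33 in DKO (SE 0.20, adjusted p = 0.00155), the last kept in all alternatives. The S1KO call was lost without S1KO replicate 1 (adjusted p = 0.0537, the highest of its range from 2.19e-13), and the S2KO call in a fit of the compared groups alone (0.0849, the highest from 1.39e-29). CD37 measured 5.02 and 7.48 CPM in EV, against 1.72 and 2.11 in S1KO, with S2KO at 2.38 and 3.69 and DKO at 2.74 and 2.18, also without overlap, and its DKO change of -1.35 was not called (adjusted p = 0.0624). The 8 lymphoid markers summed to 106 and 141 CPM in EV, 83.9 and 126 for S1KO, 86.5 and 144 for S2KO and 64.7 and 58.3 for DKO, so S1KO and S2KO overlapped EV and DKO lay below it. Of these, 2 to 4 were at or under 3 counts in each library. The 7 myeloid markers, of which 0 or 1 were, summed to 51.5 and 59.1 CPM in EV and 91.3 and 74.9 for S1KO. For S2KO they summed to 21.85 and 24.4 and for DKO to 82.8 and 70.05. The part of both lists was not tested.

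TSPAN33 measured 0.0379 and 0.299 CPM in EV (3 and 25 counts), against 1.65 and 1.59 in S1KO, with S2KO at 0.245 and 0.578 and DKO at 5.92 and 5.01. The DKO rise was 5.00 (SE 0.86, adjusted p = 0.0163), lost without DKO replicate 1 (adjusted p = 0.0902) and 2 (0.0804), within a range from 1.52e-10 to 0.0902. The S1KO libraries lay above EV without overlap, and the fitted change of 3.24 was not called (adjusted p = 0.0955). CD82 measured 1.64 and 1.46 CPM in EV, against 3.64 and 3.73 in S1KO, with S2KO at 2.79 and 2.14 and DKO at 5.41 and 4.20. Its DKO rise of 1.63 (SE 0.28, adjusted p = 0.0155) was lost without any 1 of the 4 EV and DKO libraries (adjusted p 0.0567 to 0.142, range over all alternatives 1.73e-06 to 0.142). TSPAN13 measured 35.2 and 55.3 CPM in EV, against 119 and 109 in S1KO, with S2KO at 42.1 and 49.8 and DKO at 77.5 and 77.7. Its S1KO rise of 1.33 (SE 0.23, adjusted p = 0.0294) was lost without S1KO replicate 1 (0.163), S1KO replicate 2 (0.126) or EV replicate 1 (0.0634), within a range from 0.000124 to 0.163.

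The 4 remaining DKO rises rested on few EV counts, and each was lost without any 1 of the EV and DKO libraries. TSPAN15 had EV counts of 6 and 6, against 49 and 27 in S1KO, with S2KO at 7 and 11 and DKO at 38 and 35, and a DKO rise of 3.02 (SE 0.49, adjusted p = 0.0129, range 0.000769 to 0.0901). TSPAN7 had EV counts of 2 and 10, against 42 and 57 in S1KO, with S2KO at 14 and 49 and DKO at 52 and 67, and a rise of 3.73 (SE 0.83, adjusted p = 0.0412, range 0.000342 to 0.185). Of the TPM of TSPAN7, 73.7% lay on transcripts other than protein-coding. TSPAN8 had EV counts of 1 and 3, against 11 and 8 in S1KO, with S2KO at 18 and 14 and DKO at 22 and 13, and a rise of 3.50 (SE 0.67, adjusted p = 0.0238, range 0.0105 to 0.171). PRPH2 had EV counts of 2 and 1, against 15 and 19 in S1KO, with S2KO at 7 and 4 and DKO at 11 and 11, a ratio of DKO to EV of 9.92 with a 95% counting interval of 2.98 to 51.8 (adjusted p = 0.0321, range 0.0326 to 0.185). Photoreceptor markers summed to 1.57 to 2.67 CPM in this arm.

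UPK1B, a urothelial plaque protein, was highest in S1KO. It had EV counts of 3 and 3, against 350 and 175 in S1KO (3.59 and 1.86 CPM), with S2KO at 15 and 4 and DKO at 8 and 5. The S1KO rise of 6.15 (SE 0.76, adjusted p = 0.00873) was lost without EV replicate 1 (0.0604) and without EV replicate 2 (0.0661), within a range from 1.01e-10 to 0.0661. UPK2 and UPK3A, used as urothelial markers, summed to at most 0.041 CPM in the arm. The S1KO rise of TSPAN15 (2.40, SE 0.48, adjusted p = 0.0479) was lost without any 1 of the EV and S1KO libraries (range 0.0194 to 0.242).

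CD63, CD151, CD81 and TSPAN3 were not called in any excision comparison. CD63 ranged from 171 to 196 CPM, CD151 from 102 to 168, CD81 from 79.1 to 158 and TSPAN3 from 73.5 to 110.6. TSPAN14 and TSPAN17 differed between replicates in EV, S1KO and S2KO. TSPAN14 measured 77.3 and 39.3 CPM in EV, against 98.7 and 60.1 in S1KO, with S2KO at 100.4 and 45.1 and DKO at 82.0 and 81.4, and TSPAN17 showed the same split, from 65.2 and 35.3 in EV to 57.8 and 60.9 in DKO. The remaining tested members, TSPAN4, TSPAN9, TSPAN10, TSPAN12, TSPAN18, TSPAN31 and ROM1, were not called either, at levels from 0 to 26.4 CPM. Of the TPM of TSPAN10 and CD37, 96.3% and 58.9% lay on transcripts other than protein-coding.

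Both arms raised some of the same tetraspanins, in libraries that shared no control. GSK343 and DKO raised 8 and 10, and CD9, CD82, TSPAN5, TSPAN6 and TSPAN33 were in both, 62.5% of the GSK343 rises and 50% of the DKO rises. None of these shared genes kept its call in every alternative in both comparisons. CD9 and TSPAN6 lost it in some with GSK343, TSPAN5 and TSPAN33 in DKO, and CD82 in both. TSPAN8, also among the DKO rises, and UPK1B, among the S1KO rises, were not tested in the drug arm. The family shares of the DKO and S1KO rises still count these genes, which lowers them. The all-gene shares are limited to genes tested in both arms, so the family and all-gene shares of DKO and S1KO rises have unlike bases. Of all genes tested in both arms, 260 rose in both, 16.4% of the GSK343 rises and 28.8% of the DKO rises. The combination at 72 h and DKO raised 10 tetraspanins each and shared CD9, CD82 and TSPAN5, 30% of each, where 261 genes of all were shared, 7.89% and 28.9%. S1KO shared CD9 and TSPAN6 with GSK343, 25% of the GSK343 and 33.3% of the S1KO rises, where all genes gave 7.34% and 27.4%. It shared CD9 and TSPAN13 with the combination at 72 h, 20% and 33.3%, where all genes gave 2.84% and 22.2%.

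The promoters of CD9, CD82, TSPAN5 and TSPAN33, which rose with GSK343 and in DKO, are shown because they differ in CpG density and GC boxes before the start, and they were chosen after their values were seen. No sequence of TSPAN6 is shown, since its window at the main start overlapped an annotated exon of a longer transcript. They come from the RefSeq promoter table (GRCh38.p14), which held 23 of the 31 genes at 43 starts. TSPAN3, TSPAN7, TSPAN9, TSPAN18, TSPAN32, CD37, CD81 and CD151 were not matched. Each is the stretch of up to 250 bases before a RefSeq start that precedes any annotated exon of the gene, 5′ to 3′. The start used was the nearest to the main expressed transcript that left such a stretch. Capitals mark GGGCGG or its complement CCGCCC, the GC box, searched on both strands, with overlapping matches counted.
CD9 (chr12:6200150-6200315, plus strand): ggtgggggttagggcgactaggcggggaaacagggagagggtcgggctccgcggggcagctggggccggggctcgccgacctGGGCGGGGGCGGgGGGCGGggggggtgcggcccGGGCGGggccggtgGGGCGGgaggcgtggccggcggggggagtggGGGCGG
CD82 (chr11:44565413-44565590, plus strand): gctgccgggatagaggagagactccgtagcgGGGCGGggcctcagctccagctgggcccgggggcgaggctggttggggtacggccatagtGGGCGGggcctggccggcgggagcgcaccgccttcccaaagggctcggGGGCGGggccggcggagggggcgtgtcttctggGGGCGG
TSPAN5 (chr4:98658630-98658861, minus strand): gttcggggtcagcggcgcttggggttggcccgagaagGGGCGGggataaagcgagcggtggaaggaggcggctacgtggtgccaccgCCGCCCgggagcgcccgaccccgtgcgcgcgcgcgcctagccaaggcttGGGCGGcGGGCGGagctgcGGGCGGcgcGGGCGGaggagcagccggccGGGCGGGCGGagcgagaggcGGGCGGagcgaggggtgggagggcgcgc
TSPAN33 (chr7:129144457-129144706, plus strand): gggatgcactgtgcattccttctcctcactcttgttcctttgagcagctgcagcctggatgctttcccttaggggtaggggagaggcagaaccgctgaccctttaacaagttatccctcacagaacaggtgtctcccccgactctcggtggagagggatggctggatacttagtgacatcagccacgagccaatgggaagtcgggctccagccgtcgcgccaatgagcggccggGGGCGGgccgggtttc
The printed stretches of CD9, CD82, TSPAN5 and TSPAN33 held 6, 4, 9 and 1 GC boxes, and their starts lay 0, 72, 18 and 185 bases from that of the main expressed transcript. Their whole windows of 250 bases held 28, 26, 43 and 12 CpG, where the median over 35116 windows was 11. The TSPAN6 window at the main start held 7 CpG and 1 GC box. The TSPAN5 window held more CpG than 99.0% of all windows and the TSPAN6 window more than 41.1%. A GC box lay in 42.6% of all windows and in 27 of the 43 tetraspanin windows. Genes such as CD63 and TSPAN4 enter with several starts, some with overlapping windows, so the 43 are not independent. The left and right parts of the REST motif, TTCAGCACC and GGACAGC, lay in 0.288% and 4.76% of all windows and in 0 and 2 of the 43. The 5 genes called in both comparisons thus had windows on either side of the median CpG count.

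The partners and clients of tetraspanins, a list of 41 genes with 37 tested among drug libraries and 36 among excision libraries, had 13 rises and 1 fall with GSK343, 8 and 1 with X5050, and 14 and 9 with the combination at 72 h. Over all genes 9.12%, 5.34% and 19.2% rose and 3.31%, 7.23% and 17.3% fell. Their median log2 changes were 0.36, 0.14 and -0.04, against 0.00, -0.03 and 0.01 over all genes. In S1KO, S2KO and DKO they had 1 and 1, 3 and 2, and 4 and 2, where 2.44%, 1.45% and 5.41% of all genes rose and 1.23%, 0.554% and 3.35% fell, with a DKO median of 0.14 against 0.01. CD44, the hyaluronan receptor, measured 0.991 and 1.04 CPM in DMSO and rose by 3.36 with GSK343 (SE 0.35, adjusted p = 3.58e-05), by 2.66 with X5050 (SE 0.36, adjusted p = 0.000444) and by 5.42 with the combination at 72 h (SE 0.35, adjusted p = 7.06e-08). With the combination ITGB3, the platelet integrin chain, rose by 4.12 (SE 0.32, adjusted p = 1.07e-07), HBEGF, the growth factor held by CD9, by 3.77 (SE 0.31, adjusted p = 2.04e-07), and SDCBP, the syntenin adaptor that binds the CD63 tail, by 1.65 (SE 0.15, adjusted p = 5.83e-07). With GSK343 NOTCH2 rose by 2.28 (SE 0.22, adjusted p = 6.88e-06), NOTCH1 by 0.69 (SE 0.12, adjusted p = 0.00148) and ITGA2B by 1.42 (SE 0.19, adjusted p = 0.000149). With X5050 IFITM3 rose by 1.14 (SE 0.14, adjusted p = 0.000115), ITGB3 by 2.697 (SE 0.33, adjusted p = 0.000115) and ITGA5 by 0.79 (SE 0.15, adjusted p = 0.00327). In DKO RAB27B, a GTPase of exosome release, measured 69.5 and 56.7 CPM against 2.02 and 3.29 in EV (log2 4.57, SE 0.37, adjusted p = 0.00117). CD44 rose by 3.16 (SE 0.44, adjusted p = 0.00754) and IFITM3 by 1.48 (SE 0.25, adjusted p = 0.0164), and NOTCH1 changed by -1.15 (SE 0.19, adjusted p = 0.0153). ADAM10 changed by -0.68 in DKO (SE 0.15, adjusted p = 0.0433). How the partner calls fared in the alternatives is not given here.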

How the data were processed

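RNA was sequenced as stranded total RNA with rRNA removed, per the labels' protocols. The authors deposited STAR gene counts for the drug arm and for the excision arm kallisto tables whose columns hold estimated counts and TPM per transcript, and the submitters' processing notes name Trimmomatic 0.38, STAR 2.7.3a, kallisto 0.44.0 and hg19. The deposited reverse-strand counts were used, since they were 8.01 to 9.77 times the forward counts. The deposited estimated counts were summed per gene through GENCODE 29 (84.7% of transcript identifiers matched) and rounded. Whether kallisto used strand is not given in the sources used here, so members that overlap a gene on the opposite strand are uncertain in that arm. These are all but TSPAN2, TSPAN6, TSPAN7, TSPAN12, TSPAN13, TSPAN15, TSPAN17, TSPAN33, CD53, PRPH2 and UPK1B, and so include CD9, CD82, TSPAN5, TSPAN8 and TSPAN32.

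Each arm was fitted by itself over all its groups with the robust quasi-likelihood test of edgeR 4.0.16 under R 4.3.3 after filterByExpr and TMM, and p values were adjusted over 19224 and 21285 tested genes with a threshold of 0.05. The genes' biological coefficient of variation was 0.129 and 0.323. Standard errors are the absolute log2 change over the square root of F, so approximate. With 2 libraries on each side, exact permutation reaches no p under 0.333, so all p values rest on the variance model. Counting intervals (95%) cover counting error only.

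Alternatives were RLE size factors, DESeq2 1.42.0, no filter beyond 1 count, a replicate block, only the compared groups, removal of a GC trend, unstranded counts or length-scaled TPM counts, and each library left out. Every tetraspanin called in an arm is named with its values, and of the partners up to 4 with the lowest adjusted p in 4 comparisons. Levels of the arms were not compared. The tetraspanins and all lists were chosen with earlier results of these data known.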

Additional observations from a re-analysis of the deposited data

Results flagged for a closer look

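For 5 tetraspanins the combination at 72 h departed from the sum of the single-agent log2 changes, by an interaction term in edgeR. TSPAN6 lay 3.44 below that sum (log2 -3.44, SE 1.12, adjusted p = 0.0423), TSPAN5 was at -1.58 (SE 0.38, adjusted p = 0.00933), TSPAN9 at -1.24 (SE 0.34, adjusted p = 0.0188) and TSPAN31 at -0.69 (SE 0.17, adjusted p = 0.0119). CD63 lay above it, at 0.85 (SE 0.20, adjusted p = 0.00797). TSPAN6 lost the call in 6 of 14 alternatives (adjusted p up to 0.254), without DMSO replicate 1, replicate 2 of the combination at 72 h, either GSK343 replicate or X5050 replicate 2. TSPAN5 lost it without X5050 replicate 1 (log2 -1.01, adjusted p = 0.0507). TSPAN9 lost it without replicate 2 of the combination at 72 h (0.0807) or GSK343 replicate 2 (0.0608). CD63 lost it without GSK343 replicate 1 (0.0711), and TSPAN31 without replicate 1 of the combination at 72 h (0.0505) and with unstranded counts.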

How the results depend on the processing

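Of 132 called changes (103 in the drug arm, 29 in the excision arm), 47 were called in every alternative run. Over 1467 alternative values, 1176 kept direction and call, 282 lost the call and 9 reversed. With only the compared groups, X5050 gave 1 call, the combination at 72 h 7, S1KO 3 and S2KO 0 against their controls. Over all genes these fits called 290 up and 327 down, 2789 and 2302, 195 and 105, and 0 and 0. Unstranded counts gave 1 for X5050, and GC correction 6 for the combination at 8 h. Over all genes they called 1005 up and 1148 down, and 3868 and 3392. The main fits called 1026 and 1389, and 4194 and 4074. DESeq2 and the replicate block each gave 7 for DKO against S2KO. Over all genes DESeq2 called 777 up and 789 down there, and the block called 1286 in place of 631. Counts with 1 library left out ran from 5 to 9 (GSK343), 1 to 6 (X5050), and 5 to 11, 5 to 11 and 7 to 13 (combination at 8, 24 and 72 h), all over DMSO. They ran from 5 to 7 (72 h over X5050), 9 to 10 (24 over 8 h), 8 to 12 (72 over 24 h), 3 to 7 (interaction), 3 to 6 (S1KO over EV), 4 to 8 (DKO over EV) and 0 to 0 (DKO over S1KO). A fit with 1 library left out keeps 1 library in a group, and calls over all genes moved in these fits as well. With unstranded counts TSPAN31 reversed at 72 h to 0.0262 over DMSO, 0.20 over X5050, 0.00187 over 24 h and 0.0598 in the interaction. With the GC trend removed CD81 reversed at 8 h to 0.21, and from 24 to 72 h CD151, TSPAN4, CD81 and ROM1 to -0.47, -0.0659, -0.34 and -0.13. The cause was not tested. The labels do not say that shared replicate numbers mark a common source, and with 2 numbers in each group the data cannot settle it. Correlations of same-numbered deviations ran from -0.05 to 0.21 in the drug arm. They were 0.46 to 0.58 among EV, S1KO and S2KO, a hint of pairing there, and -0.07 to -0.05 with DKO. The replicate block gave 12 calls for S1KO over EV in place of 8 (1348 genes of all in place of 781). TSPAN33 was among these S1KO calls (adjusted p = 0.0358). For S2KO over EV it gave 2 as before (716 genes of all in place of 427). For DKO over EV it gave 15 in place of 11 (3172 genes of all in place of 1866).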
